A study of Mus musculus with 8 samples.

Results

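BMAL1 and CLOCK are basic helix-loop-helix PAS proteins that bind DNA as a pair at E-boxes, the letters CACGTG and close relatives, and drive the transcription of the Per, Cry, Nr1d and PAR bZIP genes, whose products feed back on the pair. In pancreatic beta cells the clock is known for timing insulin secretion. The peaks of the 2 proteins were compared by chromatin immunoprecipitation followed by sequencing (ChIP-seq) in Beta-TC6, a mouse insulinoma line that serves as a beta-cell model. BMAL1 had 4125 peaks and CLOCK had 1378. Peaks that shared at least 1 bp were joined, which gave 258 joined sites, each made of 1 BMAL1 and 1 CLOCK peak, or 6.25% of the BMAL1 list and 18.7% of the CLOCK list. The strongest 100 peaks of each list by Normalized Tag Count, the tags at a peak scaled to 10000000 tags per library and called normalized tags below, held 20 BMAL1 peaks without a CLOCK peak (20%) and 16 CLOCK peaks without a BMAL1 peak (16%).

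The series held 8 libraries from untreated cells of this single line, harvested at confluence and fixed with 2 mM DSG for 30 minutes and 1% formaldehyde for 10 minutes: BMAL1, CLOCK, PDX1, H3K4me2, H3K27ac, H2A.Z and 2 inputs. Each target had 1 library, so no difference between BMAL1 and CLOCK could be tested against replicate error, and the values describe these libraries. The labels give neither a synchronization nor a circadian time. The BMAL1 library held 12892080 tags and the CLOCK library 17898856, with 0.48% of BMAL1 tags and 0.16% of CLOCK tags inside peaks. Tags were counted over peaks 330 bp wide for BMAL1 and 204 bp wide for CLOCK, so a ratio of their tag counts carries the difference in width and in antibody as well as in occupancy, and these cannot be told apart. H3K27ac intervals lay at 10 of 10 beta-cell marker genes, among them Ins1, Ins2, Mafa and Pdx1. They lay at 1 of 5 markers of other islet cells, Gcg, and at 0 of 5 exocrine and duct, 0 of 2 liver and 0 of 2 blood markers.

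The letters at the joined sites could be read where a peak overlapped a promoter window of 300 bp (250 bp before and 50 bp after a transcription start, RefSeq, GRCm38.p6, which has the coordinates of mm10). The following stretches were chosen because each held the letters and belongs to a site that ranked high in both lists or to a clock repressor gene. They are printed 5′ to 3′ on the strand of the gene, with CACGTG or its relative AACGTG in capitals. Of 39 windows under joined sites in the strongest 100 of either list, 28 (71.8%) held CACGTG or the relative on either strand. The windows of Per3, Dbp, Hlf and Adh5 held neither. The Tef and Cry1 letters lay inside the BMAL1 peak but outside the narrower CLOCK peak.

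Tef, chr15:81811264-81811293, + strand: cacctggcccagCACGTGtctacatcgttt
Ciart, distal, chr3:95882327-95882356, - strand: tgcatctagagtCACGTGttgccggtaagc
Ciart, middle, chr3:95882269-95882298, - strand: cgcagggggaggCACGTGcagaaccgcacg
Ciart, proximal, chr3:95882255-95882284, - strand: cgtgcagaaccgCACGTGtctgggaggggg
Cry1, chr10:85185097-85185126, - strand: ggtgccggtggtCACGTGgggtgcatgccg
Hif1a, chr12:73907720-73907749, + strand: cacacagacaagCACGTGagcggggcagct
Nptn, chr9:58582091-58582120, + strand: gcctcgccccgtCACGTGgccaaaagcgcc
Klf11, chr12:24651145-24651174, + strand: cccggaccaaaaCACGTGccgccgcccgcc
Cry2, chr2:92434218-92434247, - strand: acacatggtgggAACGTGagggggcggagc
Nr1d1, chr11:98775388-98775417, - strand: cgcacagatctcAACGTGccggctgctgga

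Sites strong in BMAL1 were mostly strong in CLOCK. The median joined site had 15.9 normalized tags in BMAL1 and 13.1 in CLOCK. Across the 258 sites the Spearman correlation of the tag counts was 0.773. It was 0.762 among the 96 sites that belonged to the strongest 100 of either list and 0.417 among the other 162, where the counts span a narrow range near the calling threshold. The 10 strongest BMAL1 peaks and the 10 strongest CLOCK peaks were the same 10 sites, and 68 joined sites were among the strongest 100 of both lists. These correlations describe sites of 1 pair of libraries that share an input, and sites are not replicates.

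**Figure D1:**
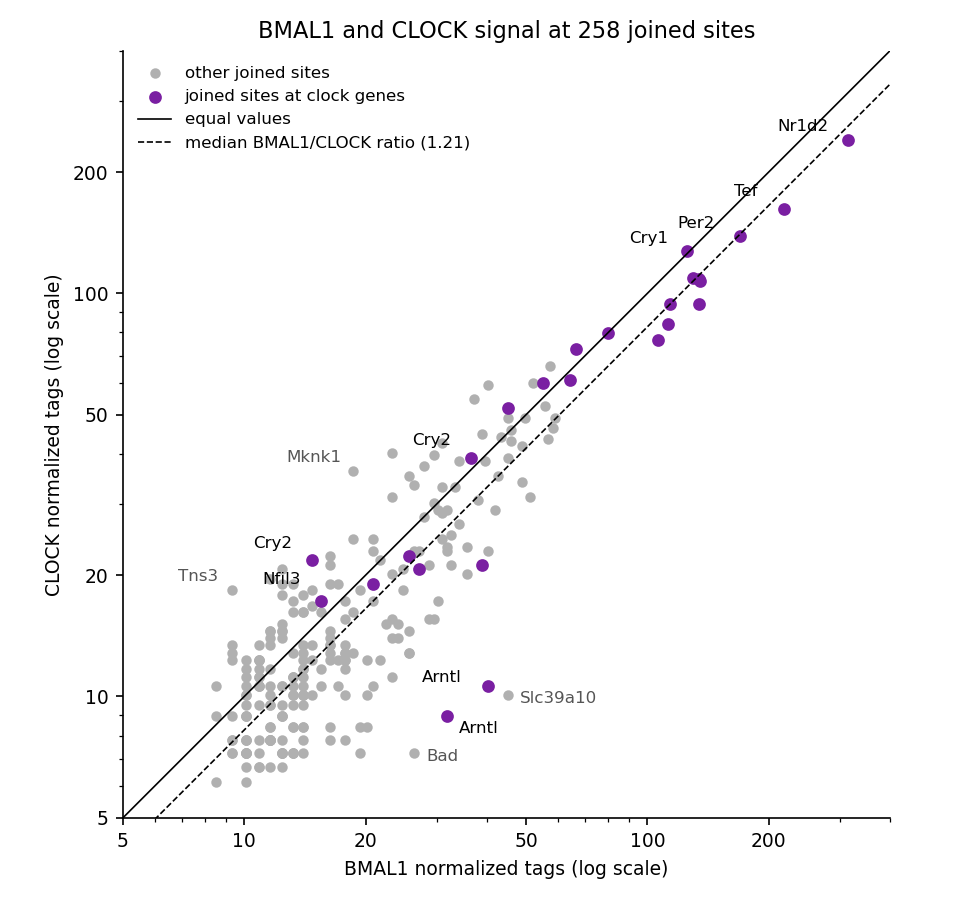
Normalized Tag Count of BMAL1 (x axis, log scale) and of CLOCK (y axis, log scale) at the 258 joined sites, with sites at clock genes in purple. Most points lie along the dashed line of the median BMAL1/CLOCK ratio, 1.21, while both Arntl sites and the Slc39a10 and Bad sites lie far below it.

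The share of peaks that were joined fell steeply with rank in both lists. In CLOCK, all 25 of the strongest 25 peaks were joined, then 23 of 25 at ranks 26 to 50, 36 of 50 at ranks 51 to 100 and 40 of 100 at ranks 101 to 200. In BMAL1 the order was broken near the top: all 10 of the strongest 10 peaks were joined, but 9 of 15 at ranks 11 to 25 (60%, 95% Wilson interval 35.7 to 80.2), against 22 of 25 at ranks 26 to 50. The 6 unjoined BMAL1 peaks in that stretch were those at Myf6, Abcc8, Tmc7, near Tmem229b, in Pde4b and a site far from Fam43a. At the foot of the lists, 1.35% of BMAL1 peaks ranked below 1378 and 4.50% of CLOCK peaks ranked below 800 were joined. Intervals here and below cover counting error only.

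**Figure D2:**
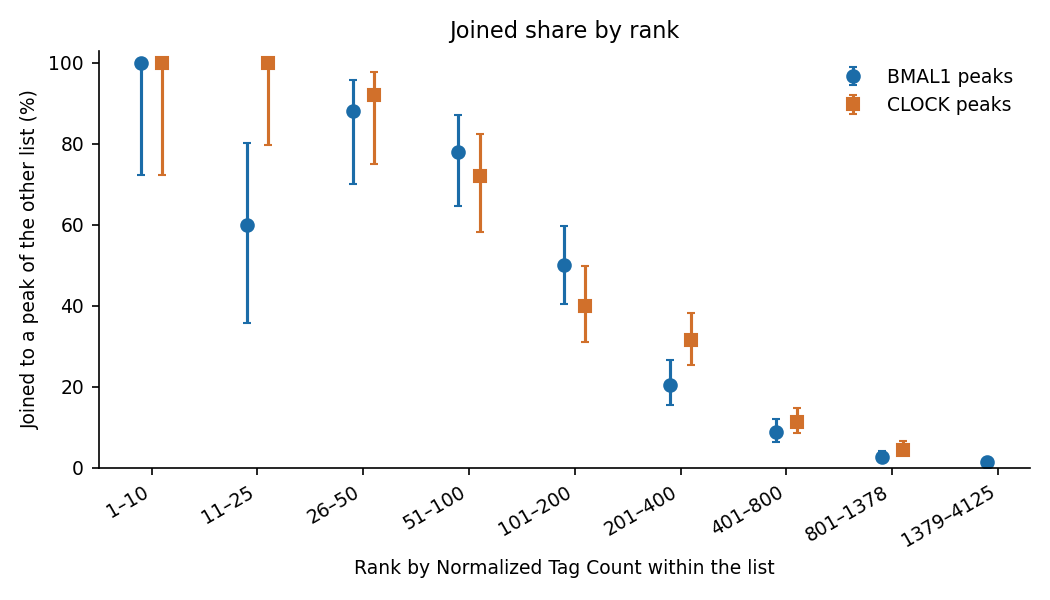
Percent of BMAL1 peaks (circles) and CLOCK peaks (squares) joined to a peak of the other list, by rank within the list; bars are 95% Wilson intervals. The BMAL1 share drops to 60% at ranks 11 to 25, where the CLOCK share is 100%.

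At the clock genes the sites differed widely in strength, but most had a BMAL1/CLOCK ratio close to the median of 1.21. Of 27 clock genes examined, 16 had a joined site, against 1.12% of 21896 protein-coding genes with a joined site nearest to their ends within 50 kb. The list and the sites were chosen with these data known, so the count is a description. The strongest of all was in Nr1d2, which encodes the repressor REV-ERB beta, at chr14:18238526-18238856, 415 bp inside the listed start. It had 314.9 normalized tags in BMAL1 and 240.8 in CLOCK. Tef, a PAR bZIP activator of D-box genes, followed with 218.7 in BMAL1 and 162.0 in CLOCK. Its site lay inside the gene, 294 bp upstream of a listed start and 8447 bp from the nearest gene end.

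The period genes, whose proteins repress the pair, had joined sites of like strength. Per2 had 169.9 in BMAL1 and 138.6 in CLOCK, Per1 129.5 and 109.5, and Per3 114.0 and 93.9. Among the cryptochromes, the partners of the PER proteins, Cry1 had 125.7 in BMAL1 and 127.4 in CLOCK. Cry2 was weaker, with 36.5 in BMAL1 and 39.1 in CLOCK at its promoter and 14.7 and 21.8 inside the gene. The Cry1 and both Cry2 sites had ratios below 1, but each interval of the ratio included 1 (0.801 to 1.21 for Cry1).

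Nr1d1, which encodes REV-ERB alpha, had 3 joined sites, with 135.0, 79.9 and 66.7 normalized tags in BMAL1 and 107.3, 79.9 and 72.6 in CLOCK. Their ratios were 1.26, 1.00 and 0.92, so the site at the start of the gene was the lowest relative to CLOCK. The PAR bZIP gene Dbp had 134.2 and 94.4 at an intragenic site and 106.3 and 76.5 just upstream of its start, with ratios of 1.42 (1.14 to 1.77) and 1.39 (1.09 to 1.77). Hlf had 112.5 in BMAL1 and 83.8 in CLOCK at a site 27281 bp upstream, and 45 and 52.0 at its start.

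Among the other repressors, Ciart had 134.2 in BMAL1 and 108.4 in CLOCK, over the 3 CACGTG stretches printed above. Bhlhe41, which competes for E-boxes, had 64.4 and 60.9 downstream of the gene and 38.8 and 21.2 upstream of its start, where the ratio was 1.83 (1.17 to 2.86). Its relative Bhlhe40 had 3 joined sites of 20.9 to 27.1 in BMAL1 and 19.0 to 22.3 in CLOCK. Nfil3, a repressor at D-boxes, was low in both, at 15.5 in BMAL1 and 17.3 in CLOCK.

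The gene of BMAL1 itself, Arntl, stood apart from the other clock genes. Its 2 joined sites lay inside the gene, 1044 bp apart. The site at chr7:113284316-113284646 had 40.3 in BMAL1 and 10.6 in CLOCK, and that at chr7:113285360-113285690 had 31.8 in BMAL1 and 8.94 in CLOCK. Their ratios were 3.80 (2.21 to 6.81) and 3.56 (1.95 to 6.79), above the ratios of all other joined clock sites, the highest of which was 1.83. The focus ratio, the share of tags on the side of the centre that their strand predicts, was 0.588 in BMAL1 and 0.719 in CLOCK at the first site and 0.527 and 0.488 at the second. The 2 BMAL1 values were the lowest among joined sites at clock genes, and the CLOCK value at the second site was the lowest of all joined sites. The CLOCK value at the first site lay within the range of the other clock genes, where upstream Dbp had 0.667. Neither site lay in an H3K27ac or H3K4me2 interval, unlike the Nr1d1, Nr1d2, Per1, Per2, Cry1, Dbp and Ciart sites.

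Clock, the gene of the partner, had 2 peaks in BMAL1 alone, of 23.3 and 11.6 normalized tags. Usp2, a deubiquitinase gene, and Btrc, which encodes a ubiquitin ligase subunit, each had a single CLOCK peak of 8.38. Npas2, Arntl2, Rora, Rorb, Csnk1d, Csnk1e and Fbxl21 had a peak in neither list.

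**Figure D3:**
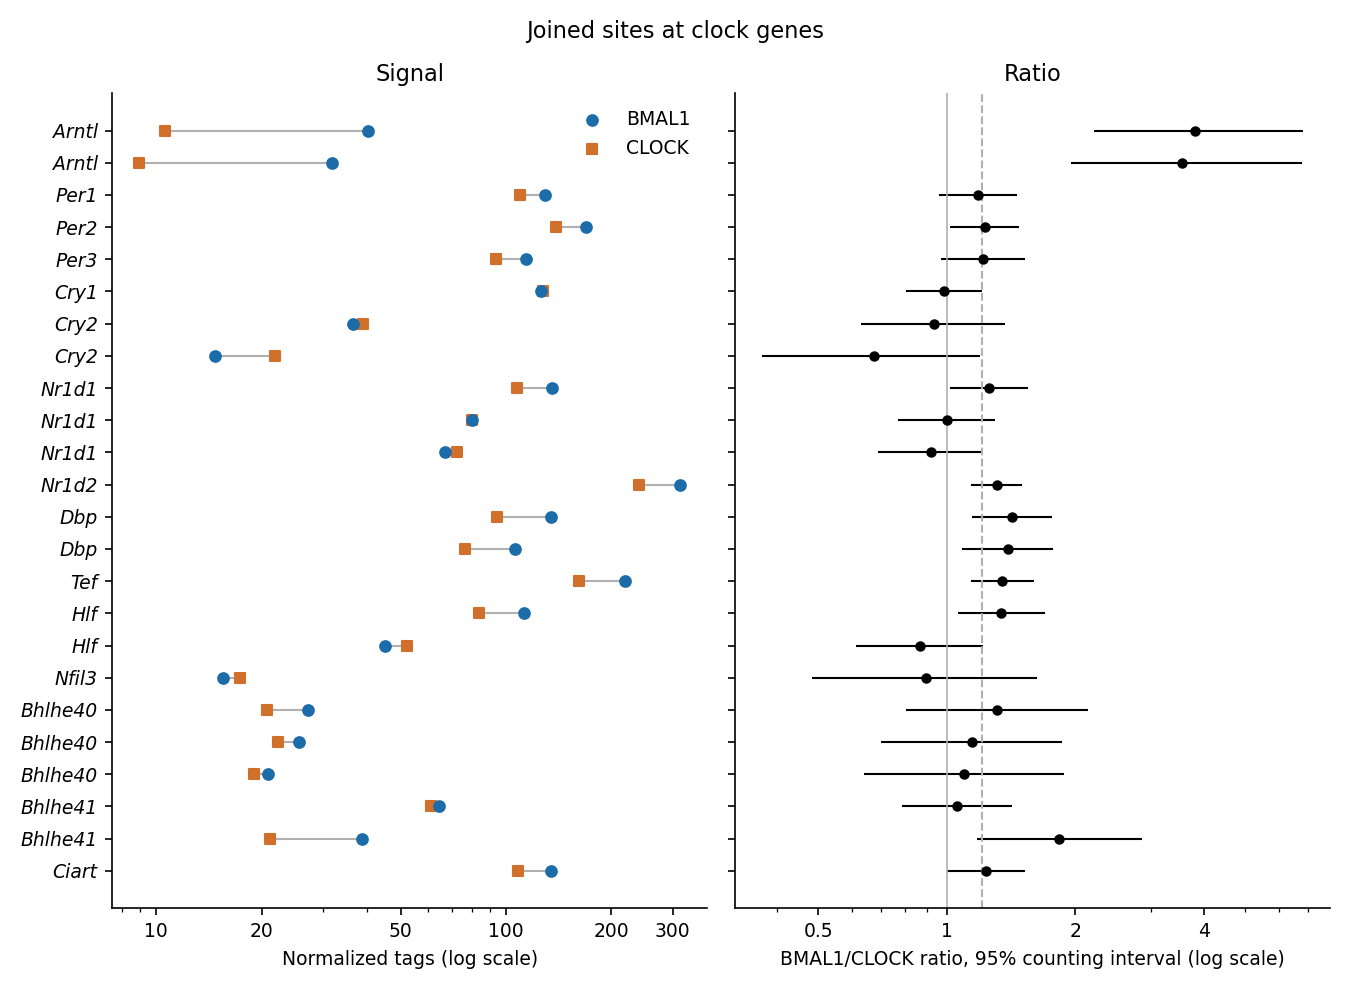
Left, Normalized Tag Count of BMAL1 (circles) and CLOCK (squares) at the joined sites of the clock genes named in the text, log scale; right, the BMAL1/CLOCK ratio with its exact 95% counting interval, log scale, a solid line at 1 and a dashed line at the median of 1.21. The 2 Arntl sites, at 3.80 and 3.56, are the only ones above 2.

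Beyond the clock genes, the 20 joined sites with the lowest rank sums also held Ttc17 (57.4 in BMAL1 and 65.9 in CLOCK), Mcf2l, a guanine nucleotide exchange factor gene (59.0 and 49.2), Adh5, an alcohol dehydrogenase gene (52.0 and 59.8), a site near Fam25c (55.8 and 52.5) and a site in Nt5c2 near Ina (58.2 and 46.4). These 5 had ratios of 0.87 to 1.25, each with an interval that included 1. The Mcf2l site was the only one of the 20 that overlapped a PDX1 peak.

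Few joined sites departed far from the common ratio. The ratio ranged from 0.506 to 4.46, with quartiles of 0.961 and 1.45. Its interval lay above 1 at 30 sites and below 1 at 4. The median was 1.21, so counts set about 1 lean to the BMAL1 side and do not measure departure from the median. Sites close to the median, such as Per2 at 1.23 and Ciart at 1.24, were among the 30. With limits likewise set about 1, the ratio was over 2 at 10 sites (3.88%) and under 0.5 at 0 (0%). The highest value, named after it was seen, was at the start of Slc39a10, a zinc importer gene, with 45 in BMAL1 and 10.1 in CLOCK (4.46, 2.60 to 8.07). Among sites in the top 300 of either list, those that stood farthest up the BMAL1 ranking relative to CLOCK were at Gpr137 and Bad, a BCL2-family gene (26.4 in BMAL1 and 7.26 in CLOCK, ratio 3.64), and at Tmem86a (19.4 and 7.26, ratio 2.67). They were followed by Ddx17, an RNA helicase gene, Bag6, Jade1, Tm2d1, a site beside Irf2bp2 and a distant site whose nearest gene was Nmbr, with 14 to 20.2 in BMAL1 and 7.26 to 8.38 in CLOCK.

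Under the same limit in the other direction, Tns3, which encodes a focal adhesion protein, moved farthest, with 9.31 in BMAL1 and 18.4 in CLOCK at a site outside the gene that lay in H3K27ac and PDX1 intervals. Its ratio of 0.506 had an interval of 0.237 to 1.00. Eif4a1, a translation initiation factor gene, Vkorc1, Lrrc8d, Atp2b1, a calcium pump gene, Tle1, Cxxc5 and Mrps28 followed, with 9.31 to 10.9 in BMAL1 and 11.7 to 13.4 in CLOCK, and the intervals of their ratios all included 1. At values this low ties are long: 9.31 normalized tags in BMAL1 is 12 tags, and such peaks shared rank 3412. Atxn3 (23.3 and 40.2, ratio 0.58) and Mknk1, a MAP kinase-interacting kinase gene (18.6 and 36.3, ratio 0.512), were among the 4 sites whose interval lay below 1, and were named after their values were seen.

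The centres of joined peaks lay close together. The median distance between the BMAL1 and CLOCK centres was 41 bp, with 140 of 258 sites (54.3%) within 50 bp and 204 within 100 bp, where peaks of these widths could be joined at up to 267 bp. At the 68 sites among the strongest 100 of both lists the median was 24 bp, and at the 162 among neither it was 55 bp. Nr1d2, Tef, Per2, Per1, Cry1, Dbp (intragenic), Per3 and Hlf (distal) were all within 33 bp, whereas the strongest Nr1d1 site had centres 119 bp apart and the second Arntl site 187 bp. The BMAL1 centre lay within 1 kb of a listed start at 118 joined sites, and at 115 of them the nearest start belonged to the same gene for both centres. At these 115 the BMAL1 centre lay upstream of the CLOCK centre along the gene at 58 and downstream at 57. On the map of the chromosome the BMAL1 centre had the lower coordinate at 146 sites and the higher at 111. The smallest overlap was 1 bp and the closest pair that was not joined had a gap of 25 bp, and 38 unjoined pairs lay within 1 kb of each other.

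Focus ratios were alike in the 2 libraries. The median was 0.772 in BMAL1 and 0.750 in CLOCK at joined sites, and 0.765 in BMAL1 and 0.731 in CLOCK over the whole lists. The median difference, BMAL1 minus CLOCK, was 0.015, with a range of -0.256 to 0.310. BMAL1 was more focused at 141 sites and CLOCK at 116. Focus ratios of the 2 libraries correlated across sites with a Spearman coefficient of 0.413, and each correlated with its own tag count (0.416 in BMAL1 and 0.529 in CLOCK).

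**Figure D4:**
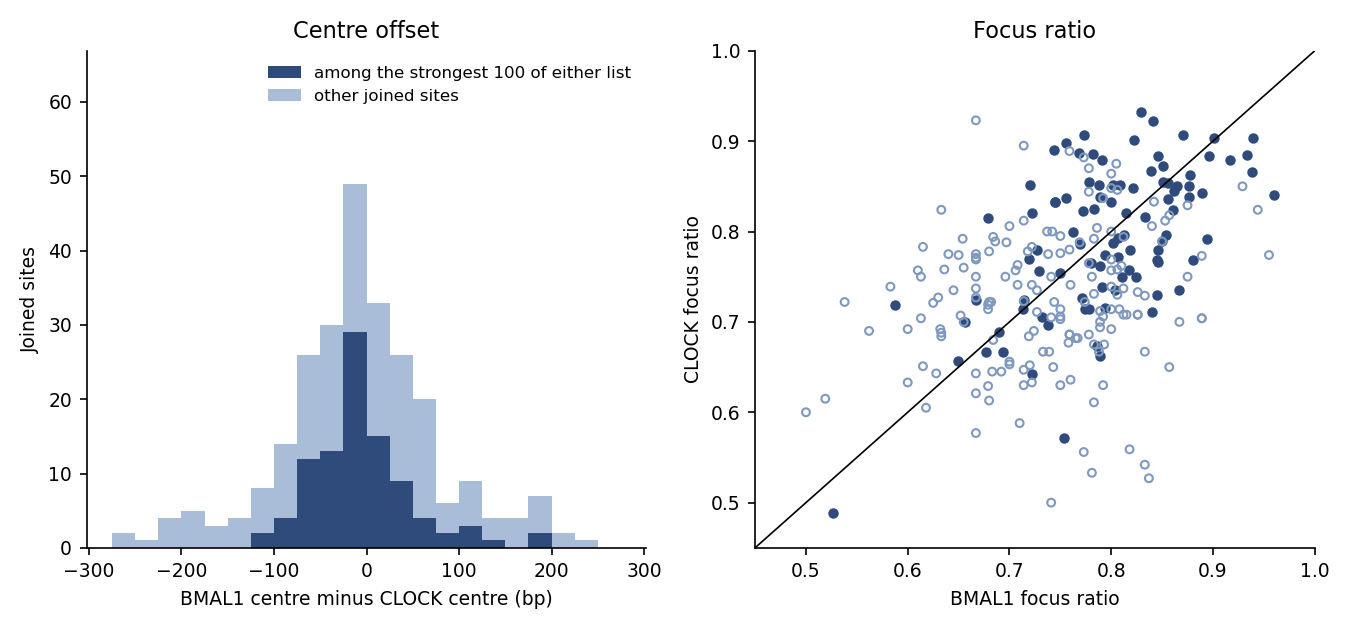
Left, BMAL1 centre minus CLOCK centre in bp, as stacked bars of joined sites; right, focus ratio of BMAL1 (x axis) against CLOCK (y axis) with the line of equal values. Filled or dark marks are the 96 sites among the strongest 100 of either list, and the offsets of these sites, with a median of 28 bp, gather nearer to 0 than those of the others, with a median of 55 bp.

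Joined sites lay mostly in active chromatin. H3K27ac intervals covered 207 of 258 (80.2%), against 18.3% of all BMAL1 peaks and 62.8% of all CLOCK peaks. H3K4me2 covered 69.4%, against 18.4% of BMAL1 and 55.4% of CLOCK peaks. H2A.Z, a histone variant of promoters and enhancers, covered 27.1%, against 8.63% of BMAL1 and 19.4% of CLOCK peaks. PDX1, the beta-cell homeodomain factor, overlapped 29 of 258 (11.2%), against 5.14% of all BMAL1 and 19.4% of all CLOCK peaks. Among them it overlapped 3 of the 68 sites in the strongest 100 of both lists (4.41%, close to the share of the BMAL1 list) and 23 of the 162 in neither (14.2%). PDX1 and H3K27ac were called against another input than BMAL1 and CLOCK.

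The strong BMAL1 sites without a CLOCK peak were few but reached far up the list. Myf6, a myogenic factor gene, had 103.2 normalized tags in BMAL1 (chr10:107493459-107493789), Abcc8, which encodes the sulfonylurea receptor of the beta-cell potassium channel, had 93.1 (chr7:46141828-46142158), and Tmc7 had 76.0. A site near Tmem229b had 67.5, and Pde4b, a cAMP phosphodiesterase gene, had 62.1. A pair of peaks 1631 bp apart, 114617 and 116248 bp from the nearest end of Fam43a, had 58.2 and 40.3. The others, of 24.8 to 48.1, were at or near Sult4a1, Nedd9, Matn1, Acvr1, Hnrnpa2b1, Stk40, Hivep2, Cndp1, Src, Egr1, Dffb, Gpat3 and Ntm. None of the 20 belonged to a clock gene.

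The rule had already set these BMAL1 values at 24.0 or more, so their height says nothing of its own about the missing CLOCK peaks. The threshold of 13 tags in CLOCK corresponded to 7.26 normalized tags, and the lowest CLOCK peak had 5.59. A level needed in CLOCK was computed from both the tag threshold and 4 times the input, on the assumptions, not checked, that input tags scale with peak width and that the input columns of both lists come from the same library at the depth they imply. The level left out the requirement of 4 times the surrounding 10 kb. Under these assumptions the BMAL1 value was 2.14 to 14.2 times the level needed, with a median of 4.54. These multiples use the values by which the rule chose the sites, so they cannot show whether CLOCK was absent. The nearest CLOCK centre lay a median of 269140 bp away. The exception was Pde4b, where a CLOCK peak of 7.26 lay 368 bp from the BMAL1 centre. CLOCK peaks had to lie 410 bp or more from each other.

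H3K27ac covered 6 of these 20 (30%, 14.5 to 51.9), among them Abcc8, Hnrnpa2b1 and Egr1, against 63 of the 80 strong joined BMAL1 peaks (78.8%, 68.6 to 86.3) and 18.3% of all BMAL1 peaks. The share depended on the depth of the list: among the 70 unjoined peaks of the top 200 it was 54.3%. H3K4me2 covered 5 of 20 (25%, 11.2 to 46.9), against 57 of 80 and 18.4% of all, and 11 of 20 overlapped no interval or peak of the other 4 targets. Their median fold over input was 33.0, with few input tags underneath, against 10.7 at the strong joined peaks. With peaks ranked by fold over input in place of tag count, 80 of the strongest 100 BMAL1 peaks had no CLOCK peak. The median focus ratio was 0.849 at these 20 and 0.803 at the joined 80.

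The strong CLOCK sites without a BMAL1 peak were lower and of another kind. The highest was in Ankrd12 beside Ndufv2, a complex I subunit gene, with 37.4 normalized tags (chr17:66077006-66077210), and only 2 of the 16 ranked in the strongest 50. The second was at the promoter of Per1, with 31.3 at 140 bp upstream of the start, 3900 bp from the BMAL1 peak of the joined Per1 site. Ccne2, the cyclin E2 gene, also had 31.3, followed by Sptbn4 (29.1), Lcorl (27.4), Pgm2l1 (25.1), Pip4p1 (24.6), Osbpl2 (23.5) and Srm, the spermidine synthase gene (22.3). Jakmip1, Bhlhe41, Trerf1, Herpud1, Tomm20, Klf16 and Taf8 had 19.6 to 22.3. The Bhlhe41 peak, 162 bp upstream of the start with 21.8, lay 832 bp from the BMAL1 peak of the joined upstream site. At Srm a BMAL1 peak of 29.5 lay 400 bp away, where BMAL1 peaks had to lie 660 bp or more apart.

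H3K27ac covered 12 of these 16 (75%, 50.5 to 89.8), against 63 of the 84 strong joined CLOCK peaks (75%, 64.8 to 83.0). Over all CLOCK peaks the share was 62.8%, inside the interval of the 16. Their fold over input was low, with a median of 6.36 against 19.2, and 14 of 16 were under 8 against 11 of 84. The BMAL1 level needed to pass 4 times the input over its wider peak, under the same assumptions, was a median of 23.9 normalized tags at these sites. The CLOCK values were scaled by 1.15, the median ratio of joined sites in the strongest 100 of either list. They then fell below the level needed at 5 of 16 (Ccne2, Sptbn4, Pip4p1, Osbpl2 and Taf8), and at 0 of 16 when the input was taken over the CLOCK width. Both counts depend on the ratio used, and most sites behind 1.15 were strong in both lists. Joined sites in the strongest 100 of CLOCK but not of BMAL1 had a median ratio of 0.750, with which the scaled values would be lower. At the Lcorl promoter, with 1 input tag, CLOCK had 27.4 where a BMAL1 level of 10.1 was needed under these thresholds. The requirement of 4 times the surrounding 10 kb was again left out, so the level needed may have been higher.

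**Figure D5:**
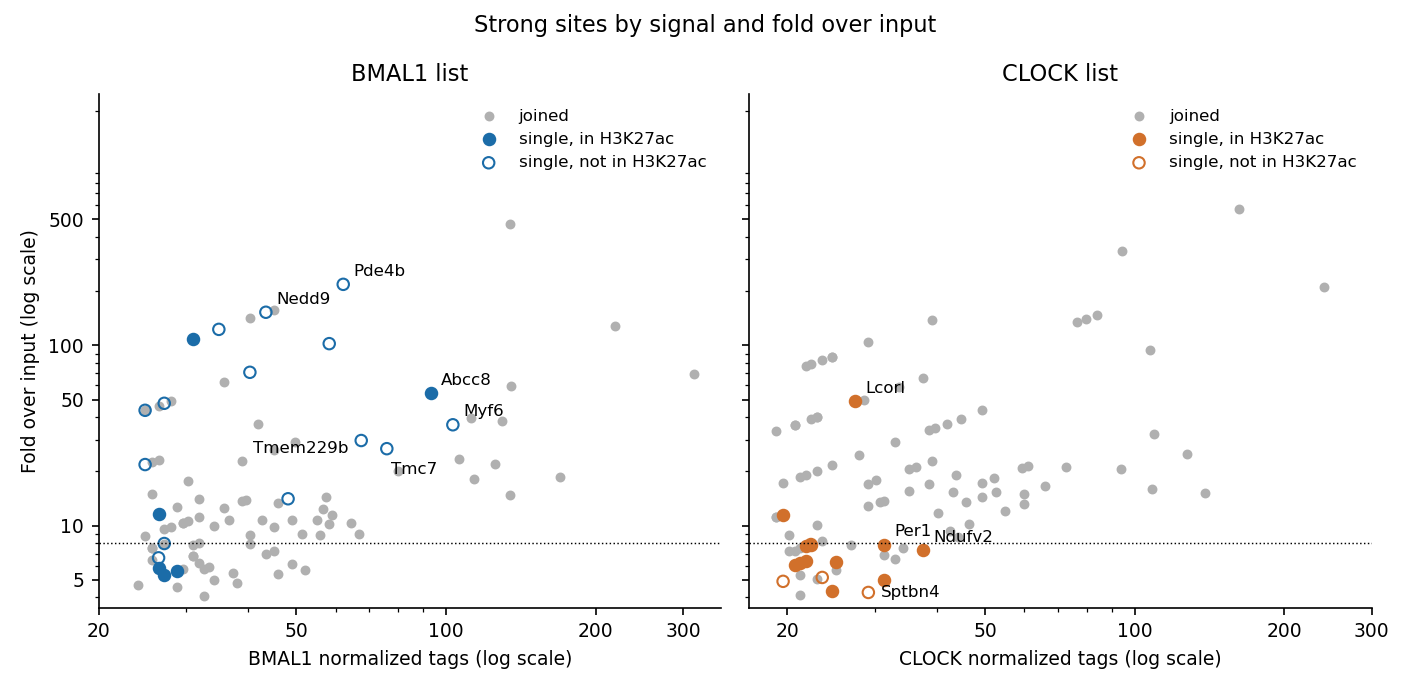
Strongest 100 peaks of BMAL1 (left) and CLOCK (right): Normalized Tag Count (x axis, log scale) against fold over input (y axis, log scale), with joined peaks in gray, peaks of a single list in color, filled where they lay in H3K27ac, and a dotted line at 8 times the input. Of the 20 BMAL1 peaks, 15 lie above 8, against 2 of the 16 CLOCK peaks.

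The promoter windows under these strong CLOCK peaks held E-boxes, shown here because no BMAL1 peak covered them. All sequences are as above.

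Per1, chr11:69098771-69098800, + strand: agcacccaagtcCACGTGcagggatgtgtg
Bhlhe41, chr6:145865556-145865585, - strand: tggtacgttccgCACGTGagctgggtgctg
Lcorl, chr5:45857601-45857630, - strand: ggaaggtagtgaCACGTGtcaatcaacccc
Ankrd12, chr17:66077090-66077119, - strand: gcctgcaggagtCACGTGtccgcccgggtc
Tomm20, chr8:126946030-126946059, - strand: gcacgccacaaaCACGTGctgcccctgacc
Taf8, chr17:47502423-47502452, - strand: gtcacacaacgcCACGTGagcttgggctat
Osbpl2, chr2:180119232-180119261, + strand: agctgtccggagAACGTGatcggcatggtt

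CACGTG, which reads the same on both strands, was present in 7.15% of all 32851 promoter windows. It was present in 58 of 95 windows under joined sites (61.1%, 51.0 to 70.2), in 100 of 237 under unjoined CLOCK peaks (42.2%, 36.1 to 48.6) and in 35 of 163 under unjoined BMAL1 peaks (21.5%, 15.9 to 28.4). Under the strong CLOCK peaks without BMAL1 it was present in 9 of 10 windows (90%, 59.6 to 98.2), the exception being Osbpl2, with AACGTG. Among these, the Gm34877 and Pgm2l1 windows lay under the same peak and shared their copy, so the windows are not separate sites. The other strong CLOCK peaks without BMAL1 overlapped no window. The 2 windows under strong BMAL1 peaks without CLOCK, both of Hnrnpa2b1, held neither. The relatives CACGTT and AACGTG, the same letters on either strand, were in 4.68% of all windows and in 14.7% of those under joined sites. At least 2 copies of CACGTG were present in 24.2% of the windows under joined sites, against 0.594% of all. A copy in a window can lie outside the peak that overlaps the window. Windows of divergent genes overlap and share letters, and a match is not a measured binding site.

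Where a joined site had CACGTG in a window, the nearest copy lay a median of 38 bp from the BMAL1 centre and 33 bp from the CLOCK centre over 50 sites, nearer to BMAL1 at 23 and nearer to CLOCK at 26. Both centres of the Cry2 promoter peaks lay within 3.5 bp of the AACGTG printed above. At Ciart the distal copy was 2.5 bp from the CLOCK centre and 24.5 bp from the BMAL1 centre. At the strong CLOCK peaks without BMAL1 the nearest CACGTG lay 3.5 to 45.5 bp from the centre over 8 sites. At Tef the nearest copy in the window was 158.5 bp from the BMAL1 centre and 162.5 bp from the CLOCK centre, and at Cry1 152.5 and 149.5 bp. Letters outside the window were not read.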

How the data were processed

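The submitters' processing notes name Bowtie 1.1.1, the build mm10 and HOMER, with the HOMER version not given in the sources used here. Per the file headers, findPeaks called BMAL1 and CLOCK peaks per library against the same input, at a minimum of 13 tags and at 4 times both the input and the surrounding 10 kb, with an FDR of 0.001 and a Poisson p-value of 1e-04. Tags counted at listed peaks went down to 9 in BMAL1 and 10 in CLOCK, below that minimum. The deposited Normalized Tag Count is a signal scaled to 10000000 tags. Whole tag counts were recovered from it for all 4125 and 1378 peaks, within the rounding of the printed value plus 0.01 tags. The deposited focus ratio is a fraction. The deposited findPeaks score served for alternative ranks, and the deposited fold over input, a ratio, for filters. Deposited p-values and region sizes in bp were read and entered no result.

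Peaks sharing at least 1 bp were joined. Ratios carry exact binomial 95% intervals from the tag counts and totals, and shares carry Wilson 95% intervals. The join was tested on simulated data. The members, gene lists and settings were chosen with earlier results of these data known. Named sites were the 20 joined sites with the lowest rank sums, the 8 with the largest percentile difference in each direction among those in the top 300 of either list, all strong single-list sites, and joined sites at clock genes. Values of some listed genes are not reported here. A site is called by the protein-coding gene whose end is nearest or whose span holds its centre. The gene table gives no exons, so exonic or intronic position was not determined, and promoter windows of chromosome 18 were not used here. Input tags came from the deposited control columns. Computation used SciPy 1.17.1, pandas 2.3.3, NumPy 2.4.6 and matplotlib 3.10.9 in Python 3.11.15.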

Additional observations from a re-analysis of the deposited data

How the results depend on the processing

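No replicate could be left out and no paired analysis was possible because each target had 1 library. Of 34 alternative values, 14 were labelled the same and 20 moved. A share was the same within the main interval, and a count within a set factor of the main count. The top 50 and top 200 counts were set against the top 100 count without allowing for list length. For correlations, focus ratio differences and offsets, any change was labelled moved. Only the correlations and focus ratio differences could change sign, and 0 did. The joined share of CLOCK peaks was 14.8% with centres within 100 bp, 16.4% with 8 times the input in both lists and 35.2% with a score of 20 or more in both. The correlation of tag counts was 0.823 at 8 times the input, 0.858 at a score of 20 or more, 0.795 with centres within 100 bp, 0.770 on autosomes, 0.768 ranked by score and 0.511 ranked by fold over input. The centre offset was 29 bp at a score of 20 or more, 35 bp at 8 times the input, 30.5 bp with centres within 100 bp and 40.5 bp with peaks resized to 200 bp. Strong BMAL1 sites without CLOCK numbered 9 in the top 50, 70 in the top 200 and 80 ranked by fold over input. Strong CLOCK sites without BMAL1 numbered 2 in the top 50, 76 in the top 200 and 41 ranked by fold over input. The H3K27ac share at strong BMAL1 sites without CLOCK was 54.3% in the top 200. Counting tied peaks at the last place, a choice made after seeing the data, gave 24 BMAL1 sites of 105 and 18 CLOCK sites of 104. No peak means none detectable at this depth.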

Other observations

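The joined share of BMAL1 peaks differed between chromosomes. It ranged between 2.87% on chromosome 14 (10 of 348 peaks) and 36.4% on chromosome 9 (8 of 22), and over CLOCK peaks between 10.7% on chromosome 5 (15 of 140) and 34.8% on chromosome 9 (8 of 23). The BMAL1 list held the most peaks on chromosome 4 (476) and the fewest on chromosome 9. Copy number of the chromosomes in the line was not tested.

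Joined sites lay nearer to genes than the BMAL1 list as a whole. A gene end lay within 1 kb of the BMAL1 centre at 45% of joined sites, against 7.65% of unjoined BMAL1 peaks, and within 1 kb of the CLOCK centre at 45.3% of joined sites, against 29.7% of unjoined CLOCK peaks. Genes of other pathways with joined promoter sites over CACGTG included Atg3, an autophagy gene (24.8 in BMAL1 and 18.4 in CLOCK), Bnip3, a mitophagy receptor gene (18.6 and 24.6), and Hif1a, the hypoxia factor gene (49.6 and 49.2). These genes were named after their values were seen.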
